A study of Capra hircus with 10 samples.

Results

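The genes of the cyclic AMP (cAMP) and protein kinase A (PKA) pathway were examined in goat ovaries of the luteal and the follicular phase. Members were the protein-coding genes whose symbols name an adenylyl cyclase (ADCY), a phosphodiesterase (PDE), a PKA subunit (PRKAC, PRKAR) or an A-kinase anchoring protein (AKAP), together with the transcription factors CREM, CREB1 and ATF1. These rules gave 60 of the 20587 gene symbols and 200 of the 43766 protein-coding transcripts. The study sequenced ribosomal RNA-depleted RNA from 5 luteal phase and 5 follicular phase ovaries of Anhui white goats, collected at a slaughterhouse, with 1 library per ovary. No treatment was given, and the ages of the goats and the day of the cycle were not given in the sources used here. The labels set the 2 groups apart by estrus phase only, and nothing ties ovaries to separate goats, so the p-values measure the spread between these ovaries.

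In the cAMP pathway, a hormone receptor coupled to a stimulatory G protein turns on an adenylyl cyclase, which makes cAMP from ATP, and phosphodiesterases break cAMP down again. cAMP binds the regulatory subunits of PKA and frees its catalytic subunits, anchoring proteins hold PKA at particular places in the cell, and in the nucleus PKA phosphorylates CREB1, CREM and ATF1, which bind cAMP response elements of target genes. In the ovary this pathway carries the signals of follicle-stimulating hormone in granulosa cells and of luteinizing hormone in theca, granulosa and luteal cells, and it drives progesterone synthesis.

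Levels are FPKM (sequenced fragments divided by the transcript's length and by the library's mapped total), summed over the transcripts of a gene. A gene entered the limma test if 5 or more of the 10 ovaries had 0.1 FPKM or more of it. Changes are log2 folds of FPKM + 0.1, luteal minus follicular, with their standard error (SE), and a call is a Benjamini-Hochberg adjusted p under 0.05 over all genes tested. The added 0.1 makes the fold of a gene near 0 smaller than its change in level.

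The phases differed in many genes. limma called 43.7% of 15359 genes, 15.9% higher and 27.8% lower in the luteal phase, and the median log2 fold of all genes was -0.14, or -0.05 when every ovary was scaled to a common median. The 7 corpus luteum markers tested were all higher in the luteal phase, with a summed level of 6330 to 8521 FPKM against 168.7 to 223.2. The 7 endothelial markers were all higher (198.7 to 259.2 against 89.3 to 104.0 FPKM), whereas 4 of 8 granulosa cell markers were lower and 1 was higher (125.4 to 716.5 against 244.6 to 1133), both theca cell markers were lower (17.1 to 69.2 against 138.7 to 201.7), 5 of 9 oocyte markers were lower (8.67 to 20.4 against 16.7 to 48.3) and 5 of 6 smooth muscle markers were lower (549.9 to 977.9 against 1188 to 1499). Of 7 stromal markers 4 were lower and 1 higher (1039 to 1965 against 1139 to 1657), of 4 macrophage markers 1 was higher (47.7 to 54.2 against 24.1 to 55.4), and none of 4 T cell markers was called (7.84 to 20.1 against 8.60 to 23.6). In whole ovaries, fewer cells of a type and less RNA per cell cannot be told apart, and the part of these cell type differences in the results on the pathway was not tested.

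Of the 60 pathway genes, 54 passed the filter on low values, and 29 of these were called, 10 higher and 19 lower in the luteal phase. That is 53.7% of the 54, against 43.7% of all genes. The split was 18.5% higher and 35.2% lower, against 15.9% and 27.8% of all genes. The median log2 fold of the 54 was -0.17, beside -0.14 over all genes, and the median size of the fold was 0.47 beside 0.34. The 5 luteal values lay entirely above or entirely below the 5 follicular values in 21 pathway genes, 38.9% of those tested, against 28.4% of all genes. The 6 genes below the filter were ADCY1, ADCY10, AKAP14, PDE6B, PDE6C and PDE6H, and no ovary had more than 0.263 FPKM of any of them. Of the 29 calls, 19 were kept in all 20 alternative settings, and the 10 others are named with their genes. Of the 25 genes not called, 7 were called in at least 1 alternative.

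**Figure D1:**
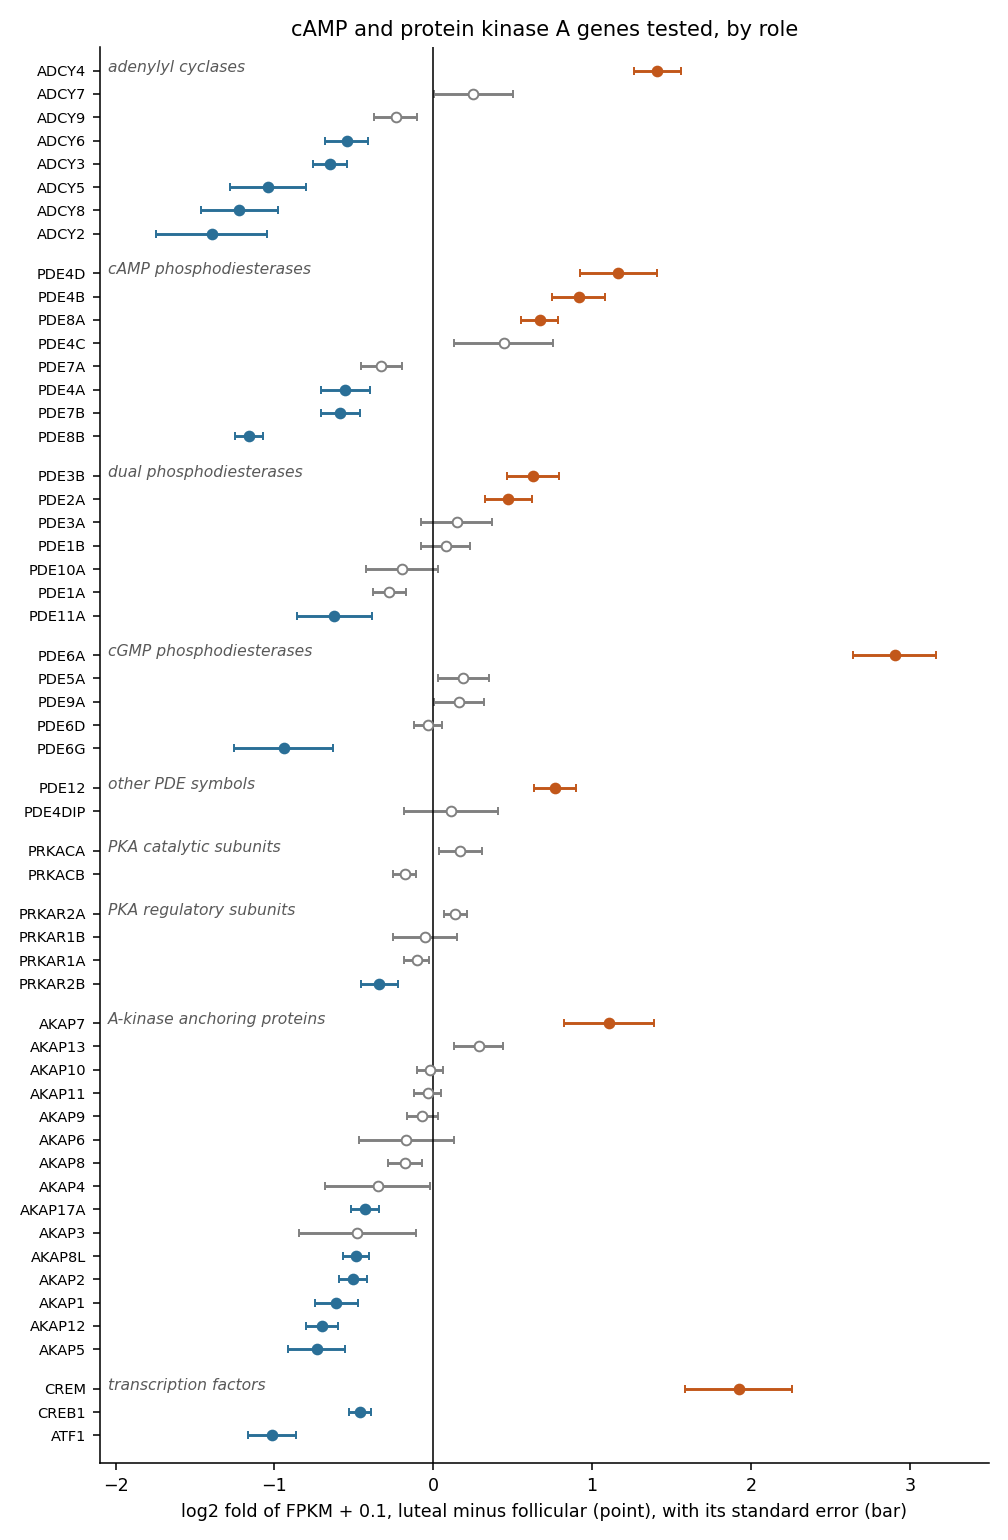
Each point is the log2 fold of FPKM + 0.1 (luteal minus follicular, 5 ovaries each) of 1 of the 54 pathway genes tested, with its SE as a bar, and the genes are grouped by role. Filled points passed an adjusted p of 0.05 (10 higher, to the right; 19 lower, to the left) and open points did not; cyclases lie mostly to the left, cAMP phosphodiesterases fall on both sides and PKA subunits stay close to 0.

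Among the transcription factors, CREM was higher in the luteal phase and its relatives CREB1 and ATF1 were lower. CREM is the cAMP response element modulator, a gene that makes both activators and repressors. Its level was 51.0, 63.5, 25.9, 56.2 and 40.3 FPKM in luteal replicates 1 to 5 and 7.67, 28.5, 9.46, 9.87 and 11.5 FPKM in follicular replicates 1 to 5. The groups overlapped only because follicular replicate 2 exceeded luteal replicate 3. The means were 47.4 ± 14.7 and 13.4 ± 8.54 FPKM (SD, n = 5 each), a log2 fold of 1.92 (SE 0.34) with a limma adjusted p of 0.00107. Without follicular replicate 2 the log2 fold was 2.24.

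CREB1, which binds the same elements, had 12.2, 12.7, 12.4, 11.9 and 11.9 FPKM in the luteal ovaries and 15.5, 15.8, 18.9, 17.3 and 16.8 FPKM in the follicular ovaries. Every follicular ovary was above every luteal one, though the step was small, with a log2 fold of -0.46 (SE 0.07) and a limma adjusted p of 4.81e-04. When the most abundant transcript alone stood for the gene, the CREB1 call was lost (log2 fold -0.49, adjusted p 0.431). ATF1, a close relative of CREB1, had 18.5, 10.6, 9.81, 11.2 and 9.99 FPKM in the luteal ovaries and 22.5, 25.3, 23.6, 23.9 and 23.3 FPKM in the follicular ovaries. Its groups did not overlap either, even with luteal replicate 1 far above the other luteal ovaries. The ATF1 log2 fold was -1.02 (SE 0.15) with a limma adjusted p of 4.15e-04.

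The make-up of the trio therefore differed between the phases. CREM held 65.0 ± 7.61% of the summed FPKM of the 3 genes in luteal ovaries and 23.5 ± 9.94% in follicular ovaries, and the groups did not overlap (53.9 to 73.1% against 16.8 to 40.9%). ATF1 held 17.1% and 44.6%, and CREB1 held 17.9% and 31.9%. There were 3.88 ± 1.17 FPKM of CREM for each FPKM of CREB1 in luteal ovaries and 0.811 ± 0.560 in follicular ovaries. These shares were computed from the levels already tested, so they carry no test of their own.

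**Figure D2:**
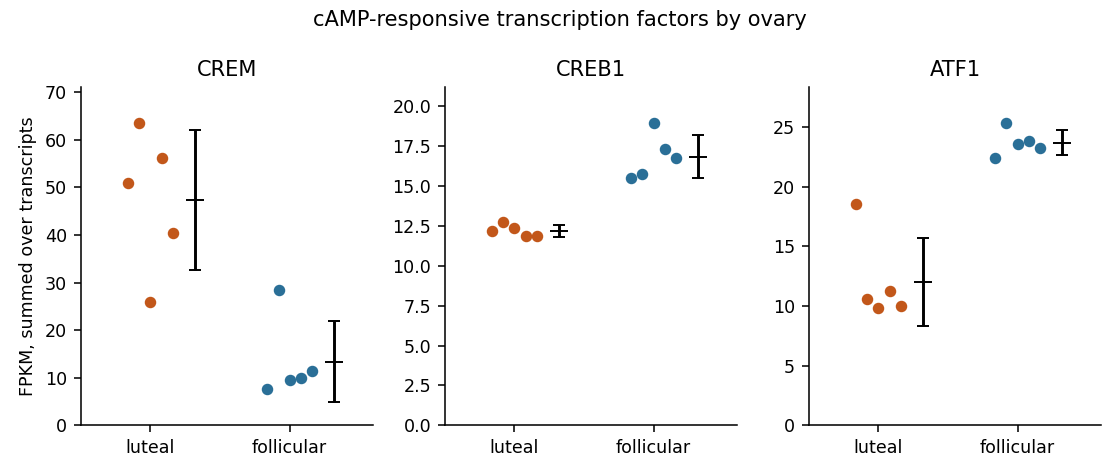
FPKM of CREM, CREB1 and ATF1 (vertical axes, each from 0) in the 5 luteal and 5 follicular ovaries (points in order of replicate number), with the mean and SD of each phase in black. CREM lies at 25.9 to 63.5 in the luteal phase, with 1 follicular ovary at 28.5 and the other 4 at 7.67 to 11.5, while CREB1 and ATF1 are higher in every follicular ovary.

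Follicular replicate 2 stood apart from the other follicular ovaries in CREM. Its summed corpus luteum markers, 201.3 FPKM, lay inside the range of the other follicular ovaries, 168.7 to 223.2. Of the 7 markers in that sum, LHCGR (18.8 against 9.10 to 11.95 FPKM), OXT (3.05 against 0.322 to 1.495 FPKM) and FDX1 (51.3 against 37.7 to 49.0 FPKM) were nevertheless highest in this ovary among the follicular ones, far under their luteal levels, and PTGFR was lowest there (13.8 FPKM). The remaining markers were highest elsewhere, CYP11A1 and SCARB1 in follicular replicate 1, PTGFR in replicate 3 and STAR in replicate 5. Of the 16 cAMP response genes tested, 3 were highest of the follicular ovaries in replicate 2 (SIK1 at 30.0, NR4A3 at 7.81 and JUNB at 209.5 FPKM) and 9 in replicate 5, FOS and EGR1 among them. Replicate 1 also held 3 (EREG, INHA and CYP19A1), replicate 3 held PER1 and replicate 4 held none. These genes were named after their values were seen, and the part of this in the CREM level was not tested. Without this ovary, 27 members were called in place of 29, while over all genes 6981 were called in place of 6711.

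The table held 14 CREM transcripts, all of them above the filter, and 5 were called, all higher in the luteal phase. Of all 32842 transcripts tested, 17.3% were called, 7.47% higher and 9.82% lower. The deposited FPKM of overlapping transcripts are estimates that divide shared fragments between them, and the files do not say which transcript encodes an activator or a repressor. XM_018056839.1 was the most abundant in each luteal ovary, at 33.4, 45.0, 15.7, 29.3 and 27.8 FPKM in the luteal ovaries and 1.69, 15.8, 1.07, 2.45 and 2.16 FPKM in the follicular ovaries. Only follicular replicate 2 reached the lowest luteal value, and the other 4 follicular ovaries were at 1.07 to 2.45. Its log2 fold was 3.33 (SE 0.61, limma adjusted p 0.00490).

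XM_018056840.1 had 5.32, 5.50, 1.59, 11.7 and 3.90 FPKM in luteal ovaries and 0.201, 1.64, 0.502, 0.287 and 0.900 in follicular ovaries (log2 fold 2.86, adjusted p 0.00813). XM_018056838.1 had 3.10, 2.29, 0.758, 3.16 and 1.46 FPKM against 5 follicular values of which follicular replicate 2 was again the highest, at 1.006 (log2 fold 3.27, adjusted p 0.0119), a fold that leans on the 0.1 FPKM added before the log, since 3 follicular values were far under it. In both, luteal replicate 3 was the lowest luteal ovary and follicular replicate 2 the highest follicular one, and these alone overlapped. XM_018056834.1 was at 0.250 to 1.26 FPKM in the luteal phase, at 0.433 in follicular replicate 2 and listed at 0 in the other 4 follicular ovaries (adjusted p 0.0191). It met the filter through the luteal ovaries, so its call follows in part from the filter. XM_018056837.1 ranged from 0.337 to 7.33 FPKM in the luteal phase, with luteal replicate 4 far above the rest, and its call (log2 fold 2.87, adjusted p 0.0363) did not hold in 7 of the 10 fits made with 1 ovary missing.

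The other 9 CREM transcripts were not called. NM_001285604.1 was at 1.35 ± 0.138 and 1.62 ± 0.790 FPKM (log2 fold -0.15, SE 0.26, adjusted p 0.740). XM_018056833.1 and XM_018056842.1 had higher follicular means, 1.98 against 0.680 FPKM and 1.67 against 0.396 FPKM, with adjusted p of 0.0953 and 0.193. For both, follicular replicates 3, 4 and 5 were high (2.42 to 3.42 and 1.88 to 2.98 FPKM) and follicular replicates 1 and 2 were at or near the luteal levels. The remaining 6 transcripts had log2 folds above 0, from 0.28 (XM_018056832.1) to 2.21 (XM_018056836.1, listed at 0 in 3 follicular ovaries) and adjusted p from 0.0674 (XM_018056835.1) to 0.864.

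As a share of all CREM FPKM, XM_018056839.1 made up 65.4, 71.0, 60.6, 52.2 and 69.0% in the luteal ovaries and 22.1, 55.4, 11.3, 24.8 and 18.8% in the follicular ovaries. The share did not pass the test (limma on the arcsine square root of the share, adjusted p 0.0918), and it did without follicular replicate 2 (adjusted p 0.00757). The only CREM share called with all ovaries was that of NM_001285604.1, which took 2.25, 2.08, 5.73, 2.38 and 3.67% in luteal ovaries and 15.4, 10.6, 12.7, 14.4 and 10.97% in follicular ovaries (adjusted p 0.0115). No follicular share was as low as any luteal one. This call was lost with a block for the replicate number (adjusted p 0.176). Of the 19731 transcript shares tested in the series, 0.704% were called, and of the 108 shares of pathway genes 2 were called, which is 1.85%. The second was AKAP2 transcript XM_018052581.1, at 34.3 ± 2.94% of AKAP2 in luteal ovaries and 20.8 ± 2.01% in follicular ovaries (adjusted p 0.0152).

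**Figure D3:**
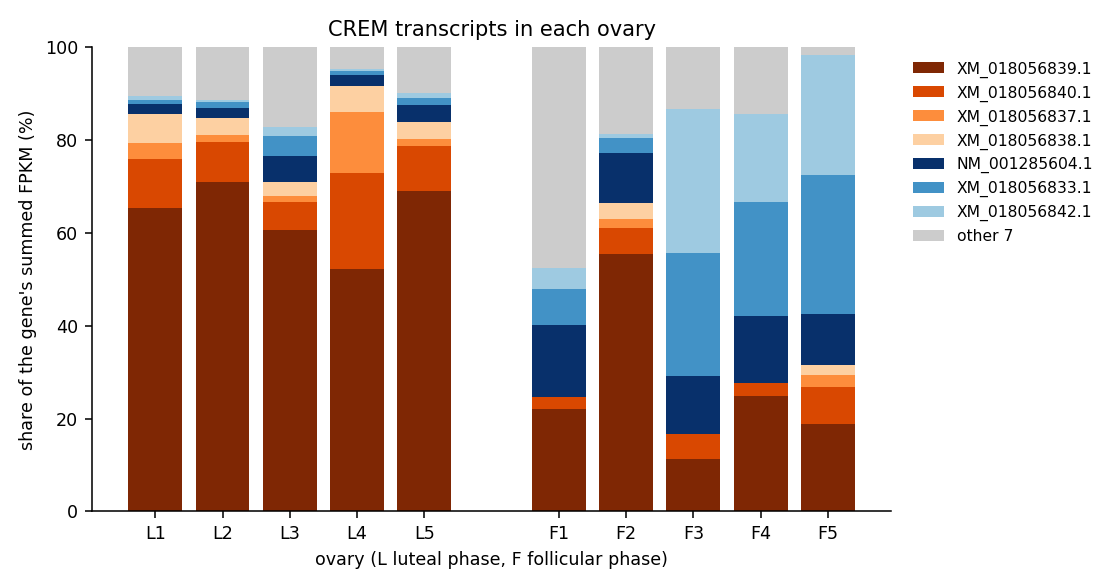
Share of the summed CREM FPKM (vertical axis, percent) held by each transcript in each ovary (L1 to L5 luteal, F1 to F5 follicular), with 7 transcripts in colour and the other 7 in grey. XM_018056839.1 fills 52.2 to 71.0% of each luteal bar and 55.4% of F2, against 11.3 to 24.8% of the other follicular bars, where the blue transcripts take more.

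Upstream, the adenylyl cyclases that were called were lower in the luteal phase, except for ADCY4. Of the 8 cyclases tested, 5 were lower (ADCY2, ADCY3, ADCY5, ADCY6 and ADCY8) and 1, ADCY4, was higher. The 6 called are 75.0% of those tested, beside 43.7% of all genes (27.8% lower and 15.9% higher). The summed FPKM of the family was 25.0 ± 1.71 in luteal ovaries and 36.0 ± 5.01 in follicular ovaries, and no luteal ovary reached the lowest follicular sum (22.9 to 26.6 against 30.2 to 41.0).

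ADCY4, a cyclase that G protein beta-gamma subunits stimulate, had 3.14, 2.87, 3.34, 3.26 and 3.87 FPKM in the luteal ovaries and 1.45, 1.08, 1.02, 0.962 and 1.43 FPKM in the follicular ovaries. All luteal values lay above all follicular ones, with a log2 fold of 1.41 (SE 0.15, limma adjusted p 3.73e-05). ADCY4 made up 13.2 ± 1.34% of all cyclase FPKM in luteal ovaries and 3.30 ± 0.435% in follicular ovaries. The summed endothelial markers were also higher in every luteal ovary (198.7 to 259.2 against 89.3 to 104.0 FPKM), and their part in the ADCY4 level was not tested.

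ADCY3, the most abundant cyclase in both phases, had 6.47, 6.61, 7.60, 6.50 and 6.07 FPKM in the luteal ovaries and 11.2, 8.51, 11.5, 9.60 and 11.95 FPKM in the follicular ovaries. The groups did not overlap (log2 fold -0.65, SE 0.11, limma adjusted p 7.62e-04). Its share of the family differed little, 26.7% against 29.3%. ADCY2, another cyclase stimulated by beta-gamma subunits, had 3.13, 2.44, 2.19, 1.53 and 1.21 FPKM against 6.38, 2.16, 7.81, 5.36 and 7.87 FPKM. Follicular replicate 2 lay inside the luteal range and the other 4 follicular ovaries above it (log2 fold -1.40, SE 0.35, limma adjusted p 0.00827).

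ADCY8, a calcium-stimulated cyclase, had 0.878, 0.668, 1.56, 1.38 and 0.871 FPKM in luteal ovaries and 2.84, 2.32, 2.44, 1.73 and 3.59 FPKM in follicular ovaries (log2 fold -1.22, SE 0.24, limma adjusted p 0.00233). The calcium-inhibited pair ADCY5 and ADCY6 was lower as well, at 1.33 ± 0.497 against 2.76 ± 0.645 FPKM (log2 fold -1.04, adjusted p 0.00520) and 4.53 ± 0.896 against 6.60 ± 0.728 FPKM (log2 fold -0.55, adjusted p 0.00749). None of these 3 cyclases had a luteal value as high as its lowest follicular value. ADCY7 (2.11 ± 0.463 against 1.84 ± 0.858 FPKM, adjusted p 0.433) and ADCY9 (3.87 ± 0.693 against 4.55 ± 0.531 FPKM, adjusted p 0.173) did not pass the test.

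The phosphodiesterases specific for cAMP (PDE4, PDE7 and PDE8) moved in both directions. All 8 were tested, 3 were higher in the luteal phase (PDE4B, PDE4D and PDE8A), 3 were lower (PDE4A, PDE7B and PDE8B) and 2 did not pass (PDE4C and PDE7A). The 6 called are again 75.0%, beside the same 43.7% of all genes. The sum of the 8 was 53.6 ± 4.87 FPKM in luteal ovaries and 62.5 ± 5.82 FPKM in follicular ovaries, and the groups overlapped (49.1 to 61.3 against 54.4 to 67.8).

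The PDE8 enzymes, which have a high affinity for cAMP, changed in opposite directions. PDE8A had 14.4, 14.5, 9.95, 12.1 and 13.9 FPKM in the luteal ovaries and 7.74, 9.48, 7.35, 8.13 and 7.61 FPKM in the follicular ovaries. PDE8B had 12.02, 12.9, 11.4, 10.3 and 11.1 FPKM in the luteal ovaries and 29.9, 25.7, 22.0, 26.8 and 25.5 FPKM in the follicular ovaries. Neither gene overlapped between the phases. The log2 fold was 0.67 (SE 0.12, limma adjusted p 0.00101) for PDE8A and -1.16 (SE 0.09, limma adjusted p 4.86e-06) for PDE8B. PDE8B alone made up 41.6 ± 3.37% of the FPKM of the 8 genes in the follicular phase and 21.6 ± 0.866% in the luteal phase, where PDE8A made up 24.2 ± 2.59%.

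In the PDE4 family, the target of rolipram, PDE4B had 6.94, 6.74, 9.28, 7.21 and 6.66 FPKM in luteal ovaries and 3.15, 4.04, 3.19, 3.46 and 5.83 FPKM in follicular ovaries (log2 fold 0.92, SE 0.17, limma adjusted p 0.00146). PDE4D had 7.05, 10.9, 4.01, 5.38 and 5.58 FPKM and 2.35, 3.75, 2.30, 2.30 and 3.18 FPKM (log2 fold 1.17, SE 0.24, limma adjusted p 0.00300). Both were higher in every luteal ovary than in any follicular ovary. PDE4A went the other way, at 1.63 ± 0.324 against 2.42 ± 0.345 FPKM (log2 fold -0.55, adjusted p 0.0146), and its call was lost on a TPM scale (adjusted p 0.0593). PDE4C was low, at 0.449 against 0.315 FPKM, and was not called (adjusted p 0.270). The PDE4 sum was 16.0 ± 2.06 FPKM in luteal ovaries and 9.45 ± 1.62 FPKM in follicular ovaries, with no overlap.

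PDE7B had 9.40, 10.7, 9.52, 8.28 and 10.2 FPKM in the luteal ovaries and 17.1, 14.0, 12.7, 11.7 and 17.6 FPKM in the follicular ovaries, all of the latter higher (log2 fold -0.59, SE 0.12, limma adjusted p 0.00303). PDE7A was at 3.45 and 4.37 FPKM and did not pass (log2 fold -0.33, adjusted p 0.0601). With the most abundant transcript alone in place of the sum, the calls of PDE4A, PDE4B, PDE4D and PDE7B were lost (adjusted p 0.0710, 0.742, 0.772 and 0.0806). The log2 folds were then -0.42 for PDE4A, 0.66 for PDE4B, 0.12 for PDE4D and -1.13 for PDE7B, so the sign held in all 4, with a larger fold for PDE7B and smaller folds for the others. The PDE4D transcript used there, XM_005694678.3, was the most abundant over all 10 ovaries but not in the luteal mean, at 2.29 ± 1.03 FPKM in luteal ovaries and 1.99 ± 0.459 FPKM in follicular ovaries. The PDE4D transcripts called were both others, XM_005694675.3 at 1.16 ± 0.536 against 0.108 ± 0.172 FPKM (log2 fold 2.80, adjusted p 0.00314) and XM_018065511.1 at 2.95 ± 2.37 against 0.532 ± 0.624 FPKM (log2 fold 2.62, adjusted p 0.0305). The first of these met the filter on low values through the luteal ovaries, so its call follows in part from the filter.

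**Figure D4:**
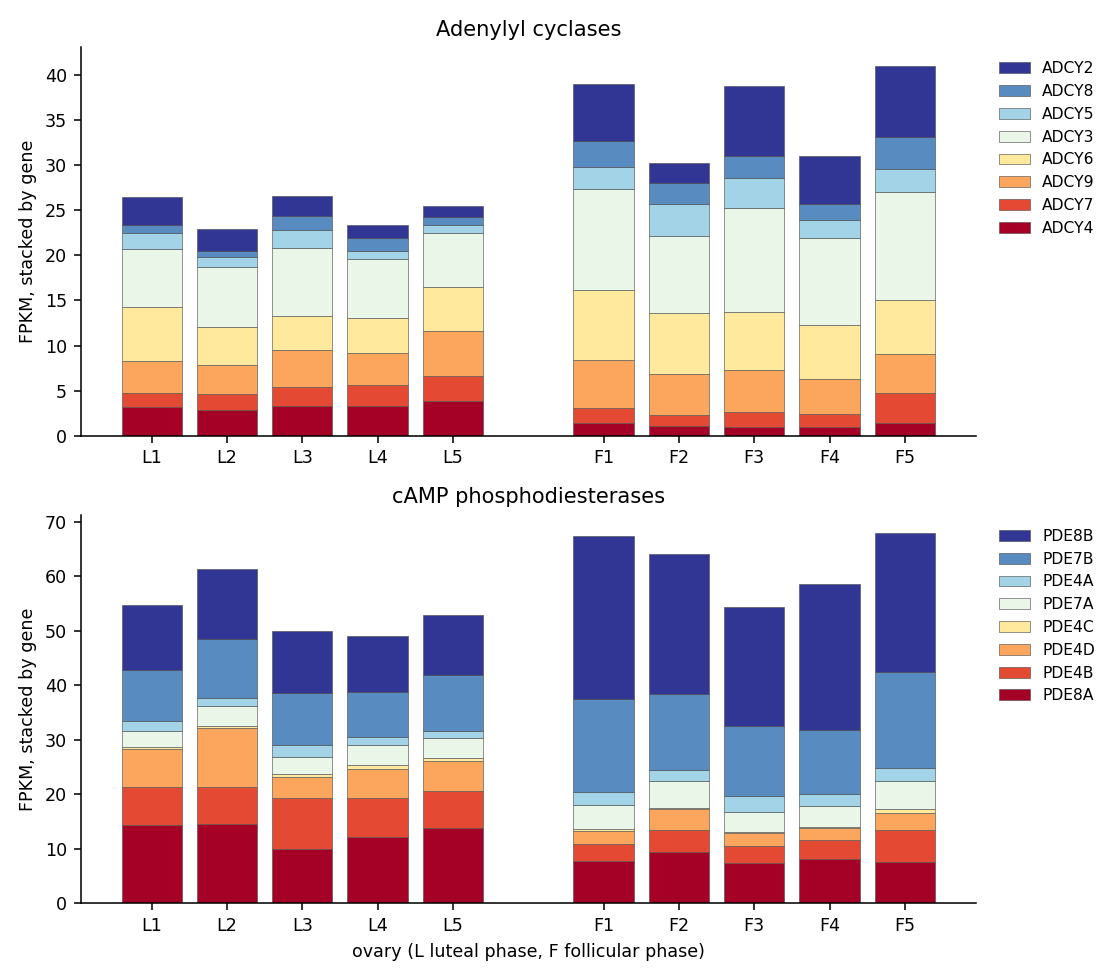
FPKM of the 8 adenylyl cyclases tested (top) and the 8 cAMP phosphodiesterases (bottom), stacked by gene in each ovary (L1 to L5 luteal, F1 to F5 follicular), with each vertical axis starting at 0. The cyclase bars are taller in every follicular ovary, with a thinner ADCY4 layer at the base, and the PDE8B layer at the top of the phosphodiesterase bars is 22.0 to 29.9 in the follicular phase and 10.3 to 12.9 in the luteal phase.

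Of the 7 phosphodiesterases that act on both cAMP and cGMP, 2 were higher in the luteal phase, 1 was lower and 4 did not pass, so 42.9% were called beside 43.7% of all genes. PDE3B, which cGMP inhibits and which insulin activates in fat, had 4.45, 4.73, 2.96, 4.47 and 5.12 FPKM against 2.55, 3.07, 2.37, 2.39 and 3.44 FPKM (log2 fold 0.63, SE 0.16, limma adjusted p 0.01003). Only luteal replicate 3 lay inside the follicular range. PDE2A, which cGMP stimulates, had 4.72, 4.91, 6.27, 7.07 and 8.09 FPKM against 4.64, 4.16, 4.66, 4.08 and 4.26 FPKM (log2 fold 0.47, SE 0.15, limma adjusted p 0.0224). The PDE2A groups touched closely without overlap, and the call was lost without luteal replicate 4 (adjusted p 0.0587) or luteal replicate 5 (adjusted p 0.0507). PDE11A was at 0.0687 ± 0.0426 against 0.155 ± 0.0436 FPKM, and its call (log2 fold -0.62, adjusted p 0.0497) was lost in 16 of 19 alternatives. It met the filter through the follicular ovaries, since only luteal replicate 3 among the luteal ones reached 0.1 FPKM. Its place among the genes called lower follows in part from that.

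PDE3A, the phosphodiesterase of the oocyte, was at 3.23 ± 0.798 and 2.94 ± 0.774 FPKM and did not pass (log2 fold 0.15, SE 0.22, adjusted p 0.614). PDE1A, a calmodulin-dependent enzyme, was the most abundant of the 7, at 8.46 ± 0.688 and 10.3 ± 1.48 FPKM, just short of the threshold (log2 fold -0.28, adjusted p 0.0508). PDE1B and PDE10A had log2 folds of 0.08 and -0.20 (adjusted p 0.703 and 0.4996). The sum of the 7 genes overlapped between the phases, 25.4 ± 1.72 and 23.6 ± 2.78 FPKM.

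Among the genes of the cGMP families, PDE6A, known as a catalytic subunit of the rod photoreceptor enzyme, was higher. Its FPKM was 0.907, 0.722, 1.38, 1.48 and 1.23 in the luteal ovaries and 0.0612, 0.155, 0.0235, 0.0209 and 0.0778 in the follicular ovaries. The level was low in all ovaries, yet the lowest luteal value was above the highest follicular one (log2 fold 2.91, SE 0.26, limma adjusted p 1.25e-05). All 5 luteal ovaries but only follicular replicate 2 among the follicular ones reached the 0.1 FPKM of the filter. PDE6A thus met the filter through the luteal ovaries, and its place among the 10 higher follows in part from that. The follicular values are near or under the 0.1 FPKM added before the log, and the log2 fold ranged from 0.99 with 1 FPKM added to 4.12 with 0.01 FPKM added, with the call kept in both. PDE6G, the small inhibitory subunit of the same enzyme, was at 0.185 ± 0.104 and 0.452 ± 0.217 FPKM (log2 fold -0.94, adjusted p 0.0308), a call lost in 9 of 19 alternatives. PDE5A, the target of sildenafil, was the most abundant cGMP enzyme and did not pass (18.7 ± 3.82 and 16.4 ± 3.18 FPKM, adjusted p 0.351). PDE9A did not pass either, with a log2 fold of 0.16, nor did PDE6D, a prenyl-binding protein with no phosphodiesterase activity of its own, at -0.03.

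PDE12 and PDE4DIP, also taken in by their symbols, are no cyclic nucleotide phosphodiesterases. PDE12, a mitochondrial RNA exonuclease, was higher in the luteal phase (6.08 ± 0.697 against 3.55 ± 0.580 FPKM, log2 fold 0.77, adjusted p 9.07e-04) with no overlap. PDE4DIP, the centrosome and Golgi protein myomegalin, was at 5.61 ± 3.17 and 4.82 ± 1.36 FPKM (adjusted p 0.784), with luteal replicate 3 at 11.1.

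Of the 6 kinase subunits, 1 was called, a smaller share than the 43.7% of all genes. Neither catalytic subunit passed: PRKACB, the more abundant, was at 21.7, 22.9, 26.9, 23.96 and 24.05 FPKM in luteal ovaries and 26.5, 25.1, 26.4, 27.4 and 29.9 FPKM in follicular ovaries (log2 fold -0.18, SE 0.07, limma adjusted p 0.0673). PRKACA was at 5.03 ± 0.662 and 4.48 ± 0.776 FPKM (log2 fold 0.17, SE 0.14, adjusted p 0.330). Luteal replicate 3 reached into the follicular range of PRKACB, and without it the gene was called (log2 fold -0.22, adjusted p 0.0280), as it was without follicular replicate 2 (log2 fold -0.21, adjusted p 0.0443).

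Of the 4 regulatory subunits, PRKAR2B, a type II subunit, was the most abundant pathway gene of all. Its FPKM was 158.2, 133.5, 138.4, 166.7 and 182.5 in the luteal ovaries and 222.6, 218.6, 172.7, 213.1 and 160.9 in the follicular ovaries. Follicular replicates 3 and 5 lay inside the luteal range (log2 fold -0.34, SE 0.12, limma adjusted p 0.0374). This call was lost in 11 of 20 alternatives, among them scaling to a common median (adjusted p 0.141) and a TPM scale (adjusted p 0.145). PRKAR1A, PRKAR1B and PRKAR2A had log2 folds of -0.11, -0.05 and 0.14 and did not pass (adjusted p 0.303, 0.856 and 0.142). PRKAR2A was called higher on the TPM scale (log2 fold 0.24, adjusted p 0.0286) and PRKAR1A lower under quantile normalization (log2 fold -0.19, adjusted p 0.0330). The sum of regulatory over that of catalytic subunits was 8.64 ± 0.949 in luteal ovaries and 9.33 ± 1.504 in follicular ovaries, and the groups overlapped.

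The inhibitor peptides of PKA, which bind free catalytic subunits, are no members but belong to a list of pathway partners. PKIB had 46.7, 57.1, 70.4, 80.0 and 81.5 FPKM in the luteal ovaries and 2.15, 1.85, 2.97, 3.73 and 4.37 FPKM in the follicular ovaries. Every luteal ovary was over 10 times the highest follicular one (log2 fold 4.47, SE 0.23, limma adjusted p 2.04e-07). PKIA was higher too, at 14.8, 18.5, 6.46, 16.6 and 17.4 FPKM against 6.47, 4.39, 4.09, 4.56 and 4.31 FPKM (log2 fold 1.54, adjusted p 8.34e-04), with luteal replicate 3 at the level of follicular replicate 1. PKIG did not pass (log2 fold 0.16, adjusted p 0.265). The 3 inhibitors together came to 102.0 to 138.5 FPKM in luteal ovaries and 34.0 to 52.3 FPKM in follicular ovaries, beside 26.8 to 32.5 and 28.8 to 34.9 FPKM of both catalytic subunits.

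**Figure D5:**
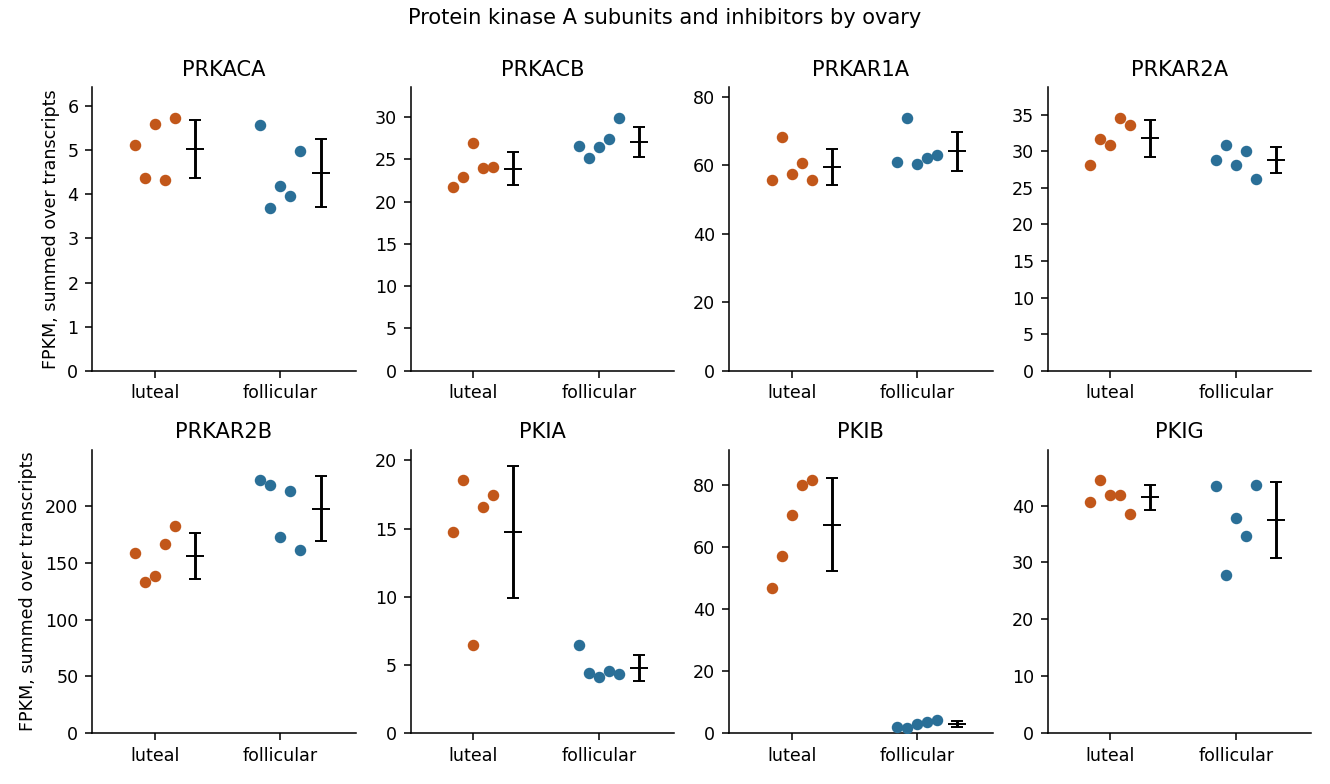
FPKM of 5 PKA subunits and the 3 PKA inhibitor peptides (vertical axes, each from 0) in the 5 luteal and 5 follicular ovaries (points in order of replicate number), with the mean and SD of each phase in black. The ranges of all 5 subunits overlap between the phases, with PRKAR2B at 133.5 to 182.5 and 160.9 to 222.6, whereas PKIB lies at 46.7 to 81.5 in luteal ovaries and 1.85 to 4.37 in follicular ovaries.

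The anchoring proteins were lower in the luteal phase where they were called, except for AKAP7. Of 15 tested, 6 were lower (AKAP1, AKAP2, AKAP5, AKAP8L, AKAP12 and AKAP17A), 1 was higher and 8 did not pass. The 7 called are 46.7% of those tested, close to the 43.7% of all genes. Their summed level was 167.8 to 199.8 FPKM in luteal ovaries and 206.3 to 233.9 FPKM in follicular ovaries.

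AKAP12, the scaffold gravin, had 24.3, 25.8, 32.5, 23.1 and 22.6 FPKM in the luteal ovaries and 38.6, 43.4, 42.7, 37.5 and 45.3 FPKM in the follicular ovaries. The groups stood well apart (log2 fold -0.70, SE 0.10, limma adjusted p 3.38e-04). AKAP1, which anchors PKA at the outer mitochondrial membrane, was at 9.03 ± 0.910 and 14.0 ± 3.12 FPKM (log2 fold -0.61, SE 0.14, adjusted p 0.00459). AKAP2 was at 28.5 ± 1.012 and 40.7 ± 5.80 FPKM (log2 fold -0.50, SE 0.09, adjusted p 0.00104), with follicular replicate 2 the highest at 50.9. Neither AKAP1 nor AKAP2 overlapped between the phases.

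AKAP5, a plasma membrane scaffold that also binds calcineurin, was at 9.14 ± 2.19 and 15.2 ± 2.96 FPKM, and its groups overlapped (log2 fold -0.73, adjusted p 0.00714). AKAP8L, a nuclear protein, was at 19.5 ± 1.17 and 27.5 ± 2.72 FPKM (log2 fold -0.49, adjusted p 7.67e-04), and with the most abundant transcript alone the log2 fold was again -0.49 but was not called (adjusted p 0.850). AKAP17A, a splicing factor, was at 5.51 ± 0.470 and 7.45 ± 0.439 FPKM (log2 fold -0.43, adjusted p 0.00249). The summed smooth muscle markers were likewise higher in every follicular ovary (1188 to 1499 against 549.9 to 977.9 FPKM), and their part in the levels of the anchoring proteins was not tested.

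AKAP7, small anchoring proteins of membranes and calcium channels, had 15.0, 24.2, 15.3, 36.1 and 37.3 FPKM in the luteal ovaries and 12.2, 16.2, 9.40, 7.89 and 10.8 FPKM in the follicular ovaries. Luteal replicates 4 and 5 were the highest, and luteal replicates 1 and 3 lay below follicular replicate 2 (log2 fold 1.11, SE 0.28, limma adjusted p 0.00907). The 8 anchoring proteins that did not pass had log2 folds from -0.48 (AKAP3) to 0.29 (AKAP13), and AKAP4, AKAP6, AKAP8, AKAP9, AKAP10 and AKAP11 lay between them. AKAP13 was called higher with a common median, quantile normalization and the replicate block (limma adjusted p 0.0425, 0.0379 and 0.0355). With the most abundant transcript its fold changed sign. AKAP8 was called lower without luteal replicate 2 (log2 fold -0.27, limma adjusted p 0.0256).

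At the level of single transcripts, 136 of the 200 member transcripts were tested and 34 were called, 15 higher and 19 lower, which is 25.0% beside 17.3% of all transcripts. The 34 came from 23 genes, and no gene had transcripts called in both directions. In 3 genes a transcript was called where the sum was not: AKAP8 XM_018051302.1 (log2 fold -0.98, adjusted p 0.0332), AKAP9 XM_013963121.2 (adjusted p 0.0281) and PDE5A XM_018049177.1 (log2 fold 0.79, adjusted p 0.0461). The AKAP9 transcript was at 1.25 to 3.99 FPKM in luteal ovaries, at 1.41 and 0.740 FPKM in follicular replicates 3 and 5, and listed at 0 in the other 3 follicular ovaries, so the groups overlapped and no fold is given. It met the filter on low values through the luteal ovaries. ATF1 had 4 of its transcripts called, all lower in the luteal phase, with log2 folds from -1.35 to -0.86.

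The other genes of the pathway were taken from 7 lists of partners, with 57 of 70 genes above the filter. Of these, 14 were higher and 9 lower in the luteal phase, 40.4% beside 43.7% of all genes, with a median log2 fold of -0.08. Of 16 receptors that act through cAMP, 6 were higher and 2 lower, which is 50.0% beside 43.7% of all genes. LHCGR, the luteinizing hormone receptor, rose from 9.10 to 18.8 FPKM in follicular ovaries to 74.2 to 103.3 FPKM in luteal ovaries (log2 fold 2.87, adjusted p 5.95e-07). MC2R, the corticotropin receptor, was at 0.193 to 0.995 FPKM in the luteal ovaries and listed at 0 in all 5 follicular ovaries, so no fold is given. It met the filter on low values only through the luteal ovaries, so its place among the 6 follows from the filter, and it could be tested in 14 of 20 alternatives. VIPR2, a receptor of vasoactive intestinal peptide, was lower (log2 fold -1.11, adjusted p 0.00634).

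The shares called in the next lists stand beside the same 43.7% of all genes. Of 5 G protein genes, 2 were higher and 2 lower (80.0%), with GNAI1 at 0.35 and GNAO1 at -1.04 on the log2 scale (adjusted p 0.00724 and 0.00334). The 5 were GNAI1, GNAI2, GNAI3, GNAO1 and GNAZ. The stimulatory genes of the list were not tested, since GNAS was not found among the gene symbols and GNAL lay below the filter. Of 6 other cAMP effectors, RAPGEF3, the exchange factor EPAC, was higher (9.64 ± 2.33 against 5.02 ± 0.832 FPKM, log2 fold 0.91, adjusted p 0.00144) and POPDC3 lower (log2 fold -0.79, adjusted p 0.0176), 33.3% of the list. Among 5 coactivators CRTC3 alone was called (20.0%) and was lower (log2 fold -0.41, adjusted p 0.0175), a call lost on the TPM scale and with the most abundant transcript alone. Among 6 related bZIP factors CEBPB was higher and ATF2 lower (33.3% called, log2 folds 0.51 and -0.20), the latter call being lost on the TPM scale and with medians set equal.

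Of 16 known cAMP response genes tested, 2 were higher and 2 lower in the luteal phase, and 12 did not pass. The 4 called are 25.0% of those tested, beside 43.7% of all genes, and the median log2 fold was -0.20, beside -0.14 over all genes. STAR, which brings cholesterol into mitochondria for steroid synthesis, had 2081 to 3245 FPKM in luteal ovaries and 12.1 to 25.7 in follicular ovaries (log2 fold 7.35, adjusted p 1.00e-09). EREG, an epidermal growth factor ligand, was higher as well (log2 fold 4.57, adjusted p 7.97e-04), with 24.7 and 46.9 FPKM in luteal replicates 1 and 2, 3.06 to 4.44 FPKM in the other 3 and 0.0721 to 1.04 FPKM in the follicular ovaries. Its log2 fold was 2.99 with 1 FPKM added before the log in place of 0.1. The immediate early gene FOSB was lower (log2 fold -1.94, adjusted p 0.00984), at 1.44 to 3.57 FPKM in the luteal ovaries and 3.69 to 9.23 FPKM in follicular replicates 1 to 4, with replicate 5 at 36.6 FPKM. With the most abundant transcript alone the FOSB call was lost (log2 fold -2.44, limma adjusted p 0.0707). FOS was called lower (log2 fold -0.88, adjusted p 0.0428), but its groups overlapped and the call was lost in 14 of 20 alternatives. Follicular replicate 5 was far above the rest in FOS as well (646.4 against 142.5 to 240.3 FPKM), and without it the log2 fold was -0.54 (adjusted p 0.0198) for FOS and -1.45 (adjusted p 0.00627) for FOSB. STAR and LHCGR are also on the list of corpus luteum markers, which were all higher in the luteal phase.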

How the data were processed

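The authors depleted ribosomal RNA, prepared strand-specific libraries and sequenced paired ends. Reads were aligned by HISAT2 and StringTie assembled the transcripts. The deposited FPKM of each transcript in each ovary came from Cuffdiff, as computed by the authors. The genome build is not given in the sources used here, so coordinates were not used, and promoter motifs were not analysed here. Read totals per ovary were not used, so no counting interval is given and the spread between ovaries is the only error. No ovaries were pooled.

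FPKM were summed per symbol and tested as log2(FPKM + 0.1) with limma 3.58.1 in R 4.3.3 (lmFit, eBayes with trend, two-sided, Benjamini-Hochberg over all genes or all transcripts). Cuffdiff's count test could not be run on FPKM. Transcript shares were tested for genes with a mean of at least 1 FPKM. The fits were tested on simulated data.

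Members and lists were chosen with earlier results of these data known. Named were every member gene, every tested CREM transcript or its range, and the most changed genes of each partner list. Listed genes filed under locus symbols were matched by synonyms of the goat RefSeq annotation. Alternatives changed the pseudocount, filter, scaling, trend, gene summary, replicate block and single ovaries. Deviations of equally numbered ovaries correlated at 0.0259 to 0.199, and not all over 0.1, so the numbers were not taken as pairs.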

Additional observations from a re-analysis of the deposited data

Results flagged for a closer look

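In 20 of 136 groups of 5 ovaries, 1 ovary lay far from the other 4, with a gap to the nearest ovary of more than 0.71 of the range. This cut-off flags about 1 in 20 groups of independent, normally distributed values. Some groups hold values listed at 0, and CREM is not independent of its transcripts, so the number flagged cannot be set against that rate. For follicular replicate 2 these were CREM at 28.5 FPKM (the next ovary at 11.5), AKAP2 at 50.9 (39.5), PRKAR1A at 73.9 (63.1), PDE9A at 1.73, the lowest (2.36), and the CREM transcripts XM_018056839.1 at 15.8 (2.45), XM_018056836.1 at 1.85 (0.503), XM_018056838.1 at 1.006 (0.266), XM_018056834.1 at 0.433 (listed at 0) and NM_001285604.1 at 3.02 (1.43). The CREM transcripts add up to the CREM level, so the gaps of CREM and of its transcripts in this ovary are not separate observations.

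Other ovaries apart from their group were follicular replicate 5 for ADCY7 at 3.35 FPKM (1.64) and follicular replicate 1 for CREM transcript XM_018056830.1 at 0.935 (0.0700). In the luteal phase, replicate 3 stood apart for AKAP4 at 9.62 (5.05), AKAP6 at 0.855 (0.482), PDE4B at 9.28 (7.21) and PDE4DIP at 11.1 (5.19). Luteal replicate 1 stood apart for ATF1 at 18.5 (11.2), luteal replicate 2 for AKAP8 at 12.4 (9.28) and XM_018056836.1 at 2.06 (1.11), luteal replicate 4 for XM_018056837.1 at 7.33 (1.85), and luteal replicate 5 for AKAP10 at 6.70 (5.87).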

How the results depend on the processing

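Between 21 and 29 members were called over all alternatives, with 21 when the most abundant transcript stood for a gene and 26 to 29 when 1 ovary was left out. Calls over all genes moved too, from 6711 with the settings used above to 4926 with the most abundant transcript. They were 5443 to 6981 when 1 ovary was left out and 7020 with the replicate block. The CREM log2 fold was 1.77 to 2.24 without 1 ovary and passed the test in all 20 alternatives. With the replicate block, 28 members were called but 0 CREM shares in place of 1, and leaving out 1 ovary gave 1 to 3 such shares, 3 without follicular replicate 2. Deviations of equally numbered ovaries were all positively but weakly correlated. Luteal replicates 2 and 4 correlated best with the follicular ovary of their own number (0.199 and 0.0876). Luteal replicate 1 did so with follicular replicate 2 (0.139), luteal replicate 3 with 5 (0.224) and luteal replicate 5 with 1 (0.0825). Whether the numbers mark pairs is thus not settled. Scaling to a common median or to TPM turned the split of calls into 11 higher and 16 lower, with 5965 and 5564 calls over all genes. Read totals per ovary were not used, and folds of genes near 0 are the least certain. Among members called in all 20 alternatives, the log2 fold ranged by over 1.5 times for PDE6A (0.99 to 4.12), CREM (1.77 to 3.33), ADCY2 (-1.72 to -1.10), ADCY4 (0.98 to 1.65), ADCY5 (-1.20 to -0.70), ADCY8 (-1.43 to -0.79), AKAP2 (-0.66 to -0.40), AKAP12 (-0.79 to -0.44) and PDE3B (0.50 to 0.75). Among the named partners it did so for EREG (2.99 to 5.08), PKIB (4.10 to 7.16), FOSB (-2.44 to -1.45), FOS (-1.08 to -0.54), VIPR2 (-1.26 to -0.63), GNAO1 (-1.19 to -0.47), POPDC3 (-0.92 to -0.50), CEBPB (0.40 to 0.63), ATF2 (-0.22 to -0.10), CRTC3 (-0.47 to -0.31) and PKIG, which was not called (0.06 to 0.32).

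The log2 folds that changed sign were all of members or CREM transcripts not called with all ovaries. Under common median scaling AKAP10 was at 0.0632, AKAP11 at 0.0517, AKAP9 at 0.0157, PDE6D at 0.0514 and PRKAR1B at 0.0357, and on the TPM scale they were at 0.0761, 0.0653, 0.0290, 0.0647 and 0.0455. Under quantile normalization AKAP10 was at 0.0629, PDE6D at 0.0159 and PRKAR1B at 0.0308. With the most abundant transcript, AKAP10 was at 0.0164, AKAP13 at -0.566, AKAP8 at 0.153, PDE4DIP at -0.725, PDE5A at -0.186 and PDE9A at -0.282. Leaving out 1 ovary at a time gave ranges of -0.0616 to 0.0017 for AKAP10, -0.0832 to 0.00189 for AKAP11, -0.0417 to 0.241 for PDE3A, -0.170 to 0.260 for PDE4DIP, -0.0685 to 0.0204 for PDE6D and -0.140 to 0.0982 for PRKAR1B. For CREM transcripts these ranges were -0.202 to 0.835 for XM_018056832.1 and -0.233 to 0.0878 for NM_001285604.1, and -0.0261 to 0.0404 for the share of XM_018056829.1 on the arcsine scale.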
